A study of Mus musculus with 2 samples.

Results

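The genes of the cytoplasmic ribosomal proteins were examined for DNase I hypersensitivity in mouse splenic B cells. They were taken by name from the protein-coding genes of the GENCODE M1 annotation on chromosomes 1 to 19: a name that begins with Rpl, Rps or Rplp, goes on with a number and ends there or with the letter a or l. This gave 75 of 21418 genes, 45 of the large ribosomal subunit and 30 of the small one. The measurement comes from 1 DNaseI library of splenic B cells from Trp53+/+ mice of strain C57/Bl6, 8 weeks of age and mock treated, and the series also holds 1 input library of the same cells, for which no processed file was analysed here. The number of mice behind each library is not given in the labels. The cells were enriched with magnetic beads against B220, a surface protein of B cells that some plasmacytoid dendritic cells also carry, and nuclei were digested with DNase I, an enzyme that cuts DNA free of nucleosomes more readily than packed DNA. The deposited file is a list of 47542 peaks, which are regions rich in the resulting fragments, each with a score from the peak caller that ranged from 5.05 to 619.44 with a median of 32.65. There is 1 library and no replicate, so no difference reported has a test over samples. Intervals of 95% (Wilson for shares, exact order statistics for medians over genes) cover counting error over genes only. The sequencing depth is unknown and the scale of the score is not stated, so a gene without a peak is one at which none was called.

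Ribosomal proteins assemble with ribosomal RNA into the small subunit, which reads the mRNA, and the large subunit, which joins amino acids. Growing cells need them in equal numbers, and their genes are transcribed at high rates in nearly all cell types from short promoters that often lack a TATA box. Their mRNAs begin with a 5′ terminal oligopyrimidine (TOP) tract, a cytosine followed by an unbroken run of pyrimidines, through which the kinase mTOR controls their translation. Several of the proteins also bind and inhibit Mdm2, the ubiquitin ligase of p53, when ribosome assembly is disturbed.

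The cell type label was checked on defining markers. All 7 B cell genes listed, among them Cd79a (107.54), Cd79b (109.17), Ms4a1 (215.77) and Pax5 (265.27), had a peak within 1 kb of a start site. Of the T cell genes 1 of 7 had one (Lck, 68.87), of the myeloid genes 2 of 6 (Cd14, 51.05, and Itgam, 18.16) and of the erythroid genes 2 of 4, of which Klf1 had the higher score (177.81). Whether other cells contributed to the peaks described here was not tested.

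Pyrimidine runs of the TOP kind stood at some of the annotated starts. At 17 of the 75 genes (22.7%, 14.7 to 33.3) an annotated transcription start site (TSS) opened a run of at least 8 pyrimidines beginning with C, against 2.41% of CpG-rich genes, which are genes with at least 55% G and C and a ratio of observed to expected CpG of at least 0.6 over 1000 bp around the start. This rule was chosen after the data had been seen; at the reference TSS alone, which is the 5′ end of the lowest-numbered protein-coding transcript, a run of at least 8 was found at 4 genes (5.33%) and one of at least 5 at 6 genes (8%, against 2.02% of CpG-rich genes). The sequences that follow are those of the longest runs and of genes that recur in the results. They are read from mm9 on the strand of the gene, from 10 bases before the start to 20 bases into the transcript, with the run in capitals.
Rps24 (chr14:25309930-25309959, plus strand): gtgagcggtcCTCTTTTCCTCCTCTCCagc
Rpl27a (chr7:116662700-116662729, plus strand): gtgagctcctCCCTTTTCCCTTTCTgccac
Rpl7 (chr1:16094464-16094493, minus strand): cgccacctttCTCTCTTCTTTTCCggctgg
Rpl32 (chr6:115758746-115758775, minus strand): gccgccgcctCTTCCTTCTTCCTCggcgct
Rpl5 (chr5:108329581-108329610, plus strand): tgactccggtCTTTTTCCCCCTTagcgcgg
Rps2 (chr17:24857045-24857074, plus strand): gcgcctccctCTTCTTCTTCTTCgggagaa
Rps19 (chr7:25669642-25669671, plus strand): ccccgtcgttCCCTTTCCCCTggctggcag
The run was 17 bases long at Rps24, 15 at Rpl27a, 14 at Rpl7 and Rpl32, 13 at Rpl5 and Rps2 and 11 at Rps19. At all of these but Rpl32, the 10 bases before the start are annotated as exon of a transcript of the same gene that starts earlier.

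Of 8 promoter words searched, TCGCGAGA had the largest ratio of its share in ribosomal protein genes to that in CpG-rich genes. The word, read on both strands and known as the core of the element bound by the methylation-sensitive factor BANP, stood between 250 bases before and 50 bases after the reference TSS in 12 of 75 genes (16%, 9.40 to 25.9). CpG-rich genes held it at 2.75%, and the genes of mitochondrial ribosomal proteins in 1 of 73. Among the 12 genes were Rpl7a, Rpl17, Rpl23a, Rpl26, Rpl27a, Rps3a, Rps6, Rps15a, Rps19 and Rps28. The following windows of 30 bases hold the word at 5 of them in capitals; the 3 genes with 10 capitals carry the palindrome TCTCGCGAGA, in which the word is found once on each strand.
Rpl26 (chr11:68715031-68715060, plus strand): cgctccgagacTCTCGCGAGAtctcgcggc
Rps28 (chr17:33961490-33961519, minus strand): accgcgtgcggTCTCGCGAGAgcgaaagtg
Rps6 (chr4:86503304-86503333, minus strand): ccgccggctgtTCTCGCGAGAacttagagc
Rps19 (chr7:25669158-25669187, plus strand): gtatctcttggTCTCGCGAatgctaatgct
Rpl27a (chr7:116662677-116662706, plus strand): cgcctgctaccTCGCGAGActtcgtgagct
All 12 genes had a peak, with a median score of 131.5 (105.0 to 170.7), beside 140.6 (126.4 to 154.1) for the 60 genes with a peak and without the word. The intervals overlap.

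Nearly all ribosomal protein genes had a peak. Within 1 kb of a TSS, 72 of 75 did (96%, 88.9 to 98.6), against 54.4% of all protein-coding genes and 84.5% of CpG-rich ones. All 59 members that are themselves CpG-rich had one. A single peak was found at 52 genes, a pair at 17 and 3 or more at 3 genes, which makes 97 peaks in all, and no peak was shared between members. The 3 genes without a peak were Rpl10l, Rpl39l and Rpl3l, tissue-restricted paralogs of broadly used genes: Rpl10l is known to stand in for the X-linked Rpl10 in the testis, Rpl39l is likewise a testis form, and Rpl3l replaces Rpl3 in striated muscle. None of the 3 starts was CpG-rich. The GC content was 54.8% at Rpl10l, 47.5% at Rpl39l and 53.8% at Rpl3l, with ratios of observed to expected CpG of 0.719, 0.550 and 0.194.

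The surroundings of the starts without a peak differed. Rpl3l lay 2920 bp from the nearest peak, which scored 115.42 and lay within 1 kb of a start of Sepx1. Rpl39l was 187937 bp and Rpl10l 1110888 bp away from the nearest peak. Of all 31-base words within 1 kb of the start, 29.0% recur elsewhere in the genome at Rpl10l, and none at Rpl39l or Rpl3l. Whether recurrent sequence, to which reads cannot be placed uniquely, bears on the absent peak of Rpl10l was not tested. The upstream region of Rpl39l is given because the gene lacked a peak although it holds the word CCGGAAG, the core of Ets factor sites, at 2 places, in capitals.
Rpl39l (chr16:10170069-10170318, plus strand, 250 bases up to the base before the start): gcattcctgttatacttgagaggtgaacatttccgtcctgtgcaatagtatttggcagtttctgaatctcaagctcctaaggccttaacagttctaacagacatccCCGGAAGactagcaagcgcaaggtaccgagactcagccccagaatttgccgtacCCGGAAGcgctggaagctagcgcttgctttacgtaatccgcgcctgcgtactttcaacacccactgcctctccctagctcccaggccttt
The parent genes Rpl3 and Rps27 had peaks of 180.34 and 99.92. Rps27l, the paralog of Rps27 and a known p53 target gene, was the one of the 4 paralogs taken up by the name rule that had a peak, at 115.72.

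The highest peak of each gene, within 1 kb of any of its annotated starts, was taken as its score. Over the 72 genes the median was 140.0 (127.8 to 148.3) and the quartiles were 114.9 and 171.2. CpG-rich genes with a peak had a lower median of 114.4 (112.5 to 115.9) and a wider spread, with quartiles of 76.00 and 163.4. The ratio of the upper to the lower quartile was 1.49 for ribosomal protein genes, 2.15 for CpG-rich genes and 2.48 for all genes with a peak, but the mitochondrial ribosomal genes had nearly the same narrow spread, with 1.56. The ratio of the medians was 1.22 (1.12 to 1.30) against CpG-rich genes and 1.36 (1.24 to 1.44) against all genes with a peak. Most scores lay in a band. A score of 100 to under 200 was found at 54 of the 72 genes (75%), against 45.2% of CpG-rich genes. At least 200 was scored by 7 genes (9.72%), against 14.7%. No member with a peak scored under 75, a value reached by 75.6% of CpG-rich genes, but this limit was set just under the lowest member, so that its count is fixed by the choice and nothing is read from it. These limits on the score were chosen after the scores had been seen. Within the whole peak list, the scores had a median percentile of 91.8, with quartiles of 87.7 and 94.9.

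**Figure D1:**
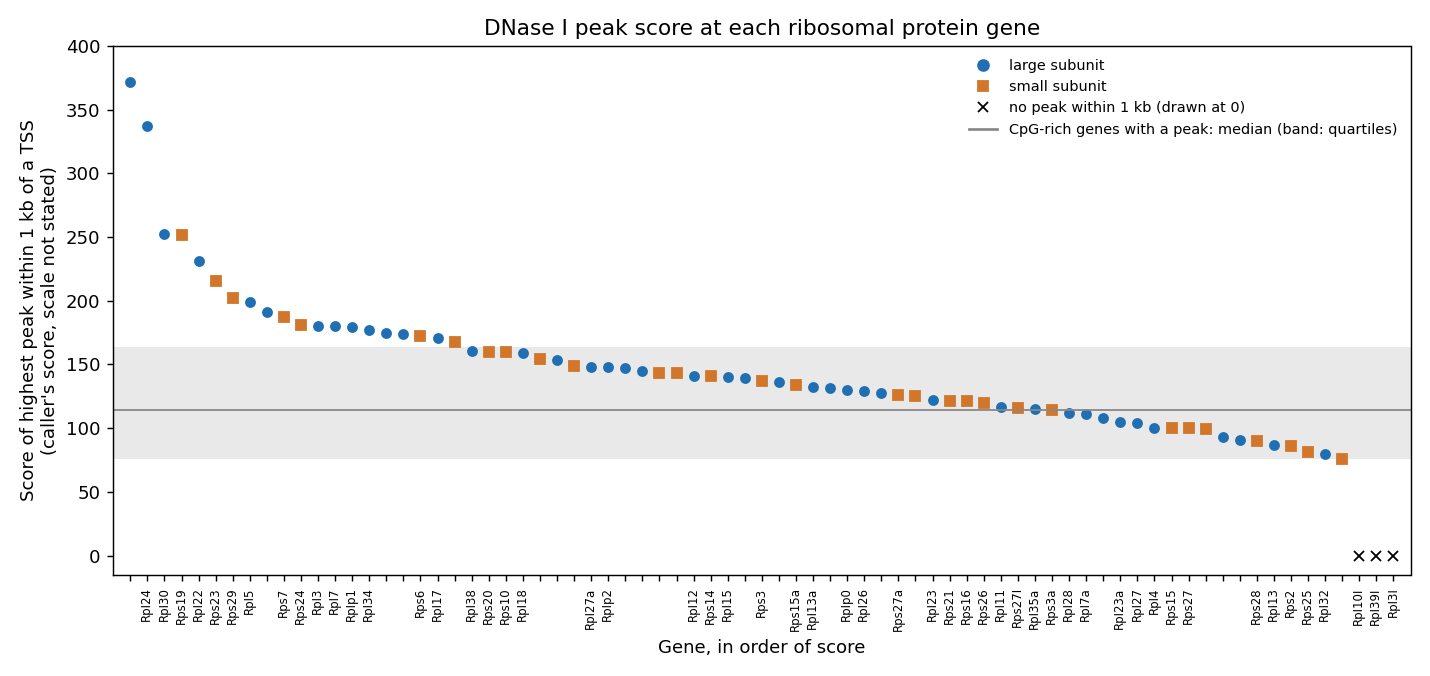
Score of the highest DNase I peak within 1 kb of a TSS (vertical axis, caller's score) at each of the 75 ribosomal protein genes in order of score, with large subunit genes as circles and small subunit genes as squares. The line and band give the median (114.4) and quartiles of CpG-rich genes with a peak; 72 genes lie around a median of 140.0, and 3 genes had no peak (crosses, drawn at 0). Genes named in the text are labelled.

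The genes with the highest scores coded for proteins of both subunits. Rpl24, a protein of the face of the large subunit that meets the small one, had 336.79, but this peak lay 6754 to 9091 bp downstream of the reference TSS, at a later start of a gene model of 42639 bp, and the highest peak within 1 kb of the reference TSS scored 79.53. Rpl30 had 252.68 and Rps19, the gene most often mutated in Diamond-Blackfan anaemia, 251.91. Rpl22, whose loss is known to block the development of alpha-beta T cells, had 231.05, and Rps23, a protein of the decoding centre, 215.82. Rps29 was the next in order at 202.02. Rpl18 was the other gene whose highest peak lay over 1 kb from its reference TSS: 159.04 at 2076 to 3515 bp downstream, and 90.1 at the reference TSS itself.

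Among the lowest scores were those of Rpl32 (80.03), Rps25 (81.09), Rps2 (86.2), Rpl13 (86.46) and Rps28 (90.1). Rps25 is known for its part in initiation at viral internal ribosome entry sites and Rps2 lies at the mRNA entry channel. Rpl32 stood at percentile 78.5 of all peaks in the list. Rpl32 and Rps2 are among the genes with a long pyrimidine run, as are Rps19 and Rpl5 (198.84) among the higher scores. Sequence that occurs more than once is frequent in this gene family, whose mRNAs have left many processed pseudogenes. Of the 31-base words in the highest peaks, a median of 7.49% (range 0 to 58.3%) recur elsewhere in the genome. Words that touch an exon recurred at 16.9%, those outside exons at 3.44%. The 25 genes with over 10% recurrent words had a median score of 114.4 (99.96 to 141.2) and the other 47 genes 144.8 (132.1 to 159.0). Spearman's rho of score and recurrent share was -0.33 over the 72 genes, which share 1 library, and its part in the scores was not tested. Rpl13 (15.3%), Rps2 (19.4%) and Rps28 (13.8%) were over 10%, and Rpl32 (5.99%) and Rps25 (7.43%) were under it. Among the genes with high scores, Rps23 (11.2%) and Rps29 (58.3%) were over it too.

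The scores were alike in the subunits and varied within each functional group. Large subunit genes had a median of 140.8 (129.2 to 159.0, 42 of 45 with a peak) and small subunit genes 135.4 (119.5 to 154.1, 30 of 30), so the intervals overlap. Rplp0, Rplp1 and Rplp2, the proteins of the P stalk that recruits translation factors to the ribosome, had 130.12, 179.5 and 147.82. Rps6, the substrate of S6 kinase, had 172.6. Rpl13a, which is known to leave the ribosome in the interferon response of macrophages, had 132.12.

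The proteins that bind Mdm2 or are its substrates had peaks at 9 of 9 genes, with a median of 129.2 and a range from 115.72 to 198.84. Rpl5 and Rpl11, which with 5S ribosomal RNA form the particle that inhibits Mdm2, had the highest and nearly the lowest score of these, 198.84 and 116.3. Rps7 had 187.41, Rps14 140.77, Rps3 136.82, Rpl26 129.18, Rps27a, which codes for a fusion of ubiquitin with a small subunit protein, 126.4, Rpl23 122.29 and Rps27l 115.72. The 9 scores lay inside the range of the other members, and both copies of the Rps27 pair stood below the median of all 72 genes.

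Genes whose human counterparts are mutated in Diamond-Blackfan anaemia, an inherited failure of red cell production, had peaks at 12 of 12, with a median of 150.1 (116.3 to 198.8). Rps19 (251.91), Rps29 (202.02) and Rpl5 (198.84) led, followed by Rps7 (187.41), Rps24 (181.03) and Rps10 (159.82). Rpl15 had 140.47, Rpl26 129.18, Rps26 119.47, Rpl11 116.3 and Rpl35a 115.06. The interval of their median holds the median of all members.

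The scores were set beside those of other groups of widely expressed genes. The genes of mitochondrial ribosomal proteins, which serve the separate ribosome of mitochondria, all had a peak (73 of 73) but a median score of 92.44 (85.20 to 106.8), and that interval lies below the one of the cytoplasmic genes. Of the annotated entries of proteasome subunit genes 38 of 40 had a peak, with a median of 109.7 (89.28 to 139.4), and with the 2 names that stand under a pair of gene identifiers counted once 36 of 38, with 109.1 (89.01 to 139.4). Of other genes known for TOP mRNAs, such as Eef2 and Tpt1, 14 of 14 had a peak, with a median of 112.2 (89.17 to 194.1); both of these intervals overlap that of the ribosomal protein genes. The share with a score of 100 to under 200 was 34.2% for mitochondrial ribosomal proteins and 47.4% for proteasome subunits, beside the 75% of the ribosomal protein genes. This band was chosen after the scores of the ribosomal protein genes had been seen, so nothing is read from the contrast.

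**Figure D2:**
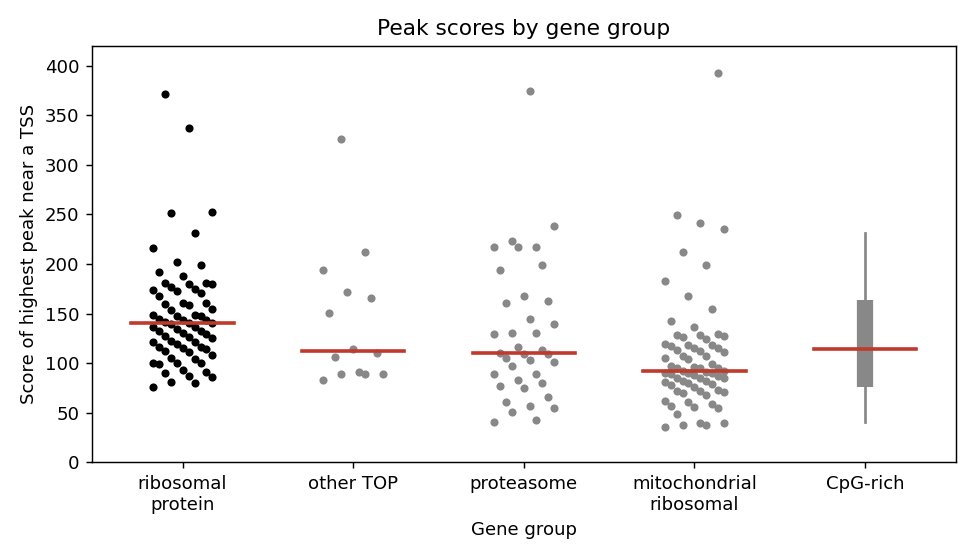
Score of the highest peak near a TSS (vertical axis) for each gene with a peak in 4 gene groups (points, with the median as a red line) and for CpG-rich genes as the median, quartiles (thick bar) and the 10th to 90th percentile (thin line). Ribosomal protein genes lie around a median of 140.0, and the mitochondrial ribosomal genes around 92.44.

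The peaks covered the start and the first part of the transcript. The highest peak was a median of 1570 bp wide (1437 to 1655), beside 1435 bp (1419 to 1457) for CpG-rich genes, but with peaks closer than 500 bp merged the order turned, with 1674 and 1731 bp. Rpl7 (2993 bp) and Rps20 (2726 bp) were among the widest and Rps29 (500 bp), Rpl38 (527 bp) and Rpl23a (598 bp) narrowest. Among the 58 highest peaks that held the reference TSS, the median edges were at -709 and 912 bp from it. The centre lay a median of 122.75 bp downstream of the reference TSS (59 to 170), beside 40 bp (30.5 to 52.5) for CpG-rich genes. The median was 40 bp (12 to 98.5) for mitochondrial ribosomal, 84.25 bp (-54.5 to 171.5) for proteasome and 186.5 bp (-383.5 to 267) for other TOP genes. The intervals of these groups, but not that of CpG-rich genes, overlap the one of the ribosomal protein genes. The annotated reference start lies upstream of the pyrimidine run at some ribosomal protein genes, as it does by 70 bp at Rpl5. Whether the choice of annotated start bears on their offset was not tested. The score was only weakly related to the width (Spearman's rho 0.13 over 72 genes) and to the ratio of observed to expected CpG (0.14). A peak over the reference TSS itself was present at 62 of 75 genes (82.7%, 72.6 to 89.6), against 41.6% of all and 67.5% of CpG-rich genes. The shares of mitochondrial ribosomal genes (84.9%), proteasome genes (90%) and other TOP genes (92.9%) were no lower.

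Of the 10 genes with peaks but none over the reference TSS, Rpl27 had a peak that began 73 bp downstream and the other 9 had the start in a gap between a pair of peaks. A gap of under 500 bp that held the reference TSS or came within 100 bp of it was found at 17 of 72 genes (23.6%, 15.3 to 34.6), against 21.4% of CpG-rich genes, so gaps were about as frequent as elsewhere. The definition of the gap was chosen after the peaks had been seen. The 17 genes were Rpl3, Rpl5, Rpl11, Rpl13a, Rpl22, Rpl23a, Rpl24, Rpl28, Rpl34, Rpl38, Rps2, Rps3a, Rps15, Rps16, Rps21, Rps24 and Rps29. Their gaps were a median of 99 bp long (55 to 256), beside 180 bp at CpG-rich genes, and held 59.3% G and C against 72.0%. The median gap ran from 78 bp upstream to 14 bp downstream of the reference TSS.

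**Figure D3:**
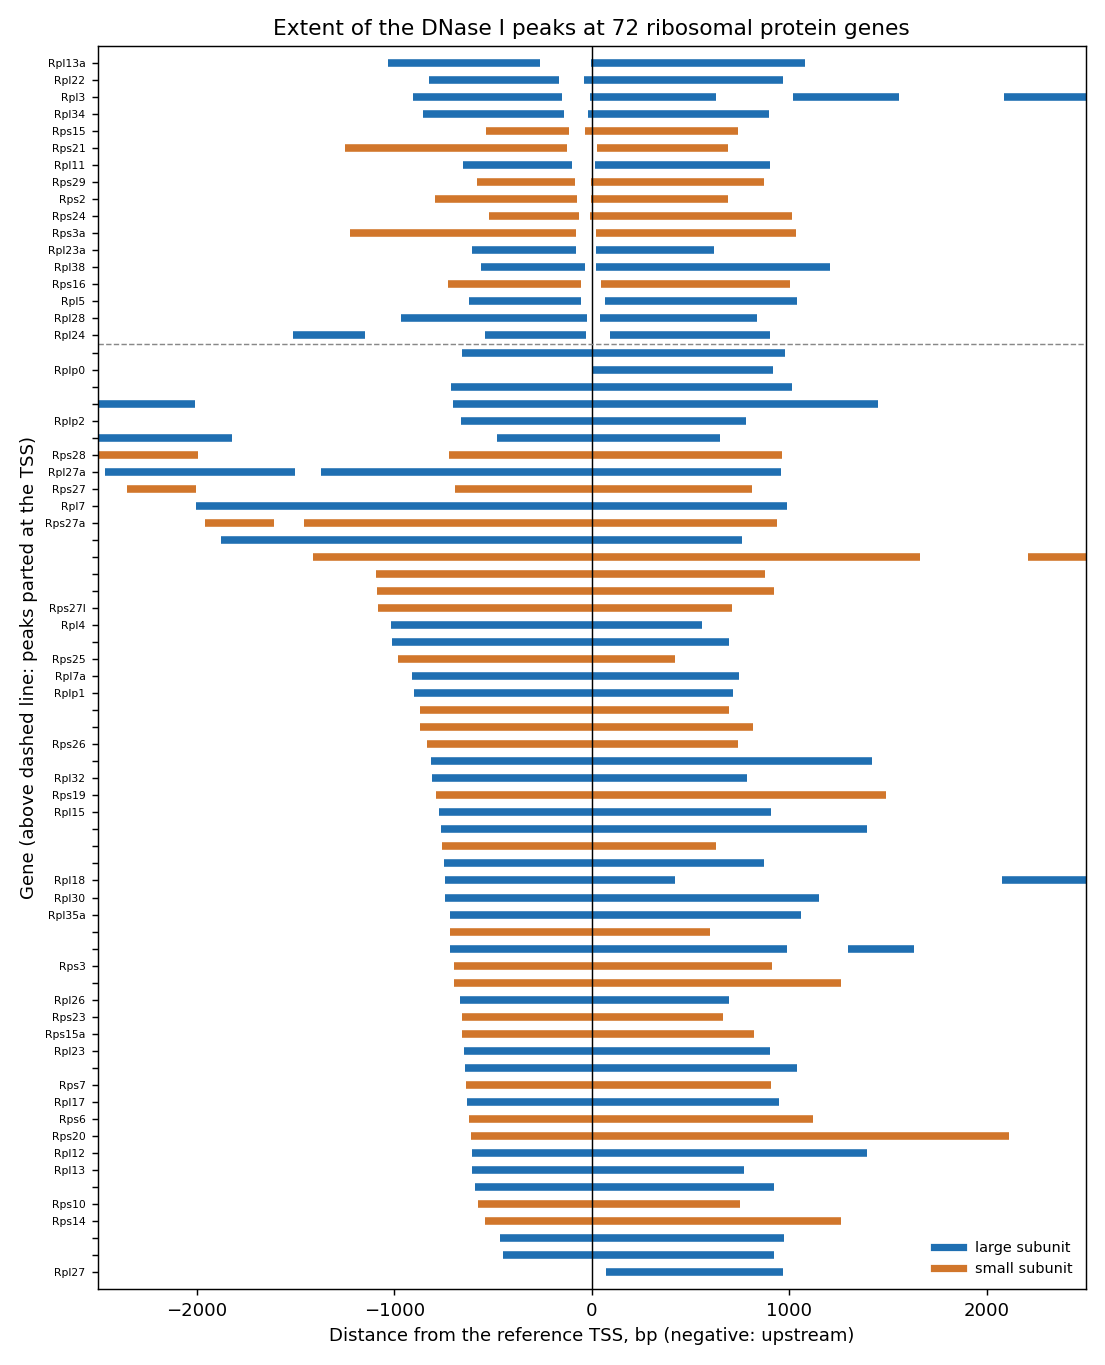
Extent of every peak from 2500 bp upstream to 2500 bp downstream of the reference TSS (horizontal axis, bp) at the 72 ribosomal protein genes with a peak, large subunit in blue and small subunit in orange. The 17 genes above the dashed line have a gap at or next to the start, in order of the position of the gap, and the others are in order of the start of their most upstream peak, which may lie beyond the axis. Genes named in the text are labelled.

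The peaks on either side of a gap were unequal at most of these genes. The downstream peak had the higher score at 11 of 17 and the upstream peak at the rest. No such share of CpG-rich genes stands beside this count, so nothing particular to ribosomal protein genes is read from it. At Rpl22 the upstream peak scored 64.53 and the downstream one 231.05, at Rpl5 45.77 and 198.84, at Rps24 83.23 and 181.03, and at Rpl11 27.88 and 116.3. Rpl3 (168.13 and 180.34) and Rps21 (120.2 and 121.62) had nearly equal pairs, and at Rps29 the upstream peak was higher, with 202.02 and 100.94. Of the 17 genes, 5 have an annotated start with a run of at least 8 pyrimidines, beside 22.7% of all 75 genes. Counted from that start, the gap ended 6 bp upstream at Rpl5 and Rps2, 11 bp upstream at Rps24, 13 bp upstream at Rpl34 and 17 bp upstream at Rpl13a, so that at each of these 5 the downstream peak began just before the pyrimidine run. The definition of a gap already placed it within 100 bp of the reference TSS. At split genes without such a run, the gap ended 3 bp upstream of the reference TSS at Rps29 and 11 bp upstream at Rpl3. At Rpl24 it ended 91 bp downstream. The position of the gap before the run was noticed after the values had been seen and was not tested. Recurrent sequence was found in or beside 1 of the 17 gaps, that of Rpl34, where 13.7% of the overlapping words recur.

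The coverage around the start summarises the same peaks. At 300 bp upstream of the reference TSS 97.2% of the 72 genes had a peak, at 50 bp upstream 77.8% and at 200 bp downstream all 72. CpG-rich genes with a peak had 89.5%, 76.6% and 86.7% at these positions, mitochondrial ribosomal genes 95.9%, 78.1% and 97.3%, and proteasome genes 92.1%, 81.6% and 97.4%. The dip before the start was thus present in all 4 groups. At 1500 bp downstream the share was 5.56%, beside 14.0% of CpG-rich, 1.37% of mitochondrial ribosomal and 7.89% of proteasome genes.

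**Figure D4:**
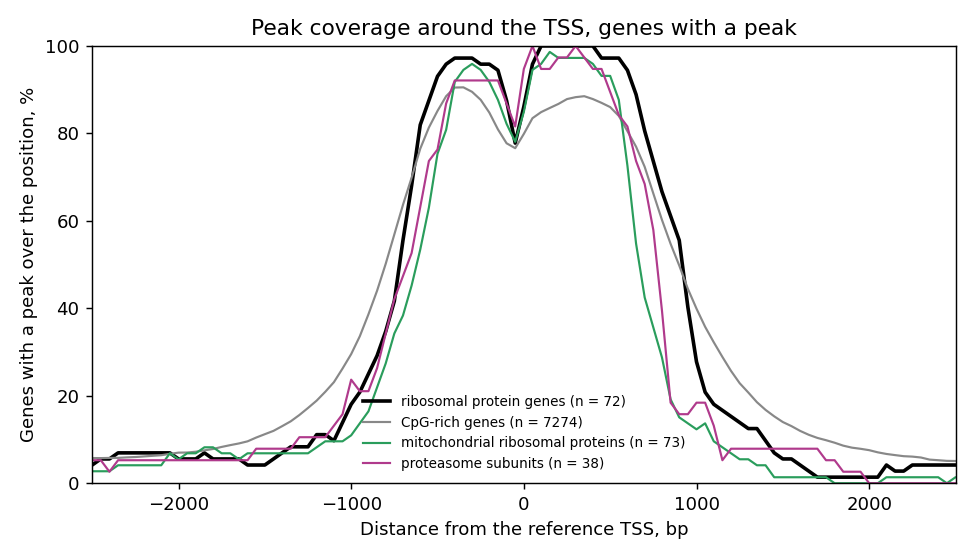
Share of genes with a peak over each position (vertical axis, %) against the distance from the reference TSS (horizontal axis, bp) for genes with a peak in 4 groups. The line of the ribosomal protein genes is at 100% from 100 to 400 bp downstream, dips to 77.8% at 50 bp upstream and falls to 5.56% by 1500 bp downstream.

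Ribosomal protein genes are short, and other peaks came closer to them. The median length of the gene was 3368 bp, beside 15535 bp for all protein-coding genes. The nearest further peak lay a median of 4225 bp (2734 to 4972) from the peaks of a ribosomal protein gene, beside 9170.5 bp (8860 to 9608) at CpG-rich genes, 7773 bp (6630 to 10319) at mitochondrial ribosomal genes and 10156.5 bp (5462 to 20525) at proteasome genes. That neighbour lay within 1 kb of a start of another protein-coding gene in 29 of 72 cases (40.3%, 29.7 to 51.8), an interval that holds the 30.4% of CpG-rich genes, beside 53.4% at mitochondrial ribosomal and 36.8% at proteasome genes. Its median score was 40.16. A divergent protein-coding neighbour was annotated at 12 genes with a peak (16.7%, beside 21.8% of CpG-rich genes), among them Lrsam1 at Rpl12, Zwilch at Rpl4 and Rab13 at Rps27. The median score of these 12 was 120.7 (99.92 to 154.1) and that of the other 60 genes 142.0 (129.2 to 159.8). At 27 genes with a peak the gene body hosts 53 small nucleolar RNAs, which guide the modification of ribosomal RNA. The hosts had a median score of 136.6 (110.8 to 148.3) and the 45 others 140.8 (127.8 to 160.6), with overlapping intervals.

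Words in the promoters were counted beside CpG-rich genes and beside all protein-coding genes. For each of 8 words, both strands were searched from 250 bases before to 50 bases after the reference TSS, so that the words can overlap each other. GGGCGG, the core of Sp1 sites, was found at 37 of 75 genes (49.3%, 38.3 to 60.4), against 77.6% of CpG-rich genes and 45.1% of all genes, and in the whole of the highest peak the shares were 87.5% and 88.5% for ribosomal protein and CpG-rich genes. CCGGAAG, the Ets core, was found at 26 genes (34.7%, 24.9 to 45.9), against 18.3% of CpG-rich and 11.1% of all genes, with a median position 20 bases before the start. The mitochondrial ribosomal genes had the Ets word at nearly the same share, 34.2%, and GGGCGG at 47.9%. AAGATGGC, the core of YY1 sites, was found at 6 genes (8%, 3.72 to 16.4, an interval that holds the 4.61% of CpG-rich genes): Rpl13a, Rpl18, Rpl23a, Rpl35a, Rps15a and Rps27. TATAAA was found at 8 genes (10.7%, 5.50 to 19.7, against 4.55% of CpG-rich but 13.5% of all genes), among them Rplp0, Rpl3 and Rpl30, but lay on the strand of the gene at only 4. TGCGCATGC (NRF1) was found at 2 genes (2.67%), TGACGTCA (the cAMP response element) at 5 (6.67%) and CACGTG (the E-box that Myc binds) at 10 (13.3%), and the intervals of these 3 hold the shares of CpG-rich genes (3.14%, 3.78% and 11.2%).

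The scores of genes with and without a word had overlapping intervals for the 5 words compared here. Genes with the Ets word had a median of 140.5 (116.3 to 159.8, n = 25 with a peak) and those without it 139.6 (126.4 to 153.8, n = 47). With and without GGGCGG the medians were 140.0 (125.4 to 159.0) and 138.8 (114.4 to 167.5). Those of the 10 genes with the E-box and the 62 without were 145.6 (122.3 to 176.8) and 138.2 (121.6 to 153.8). With and without the YY1 word they were 123.6 (99.92 to 159.0, n = 6) and 141.0 (127.8 to 153.8), and with and without TATAAA 135.4 (86.2 to 252.7, n = 8) and 140.0 (126.4 to 148.4). A match of these letters is a description of the sequence and no measure of binding.

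**Figure D5:**
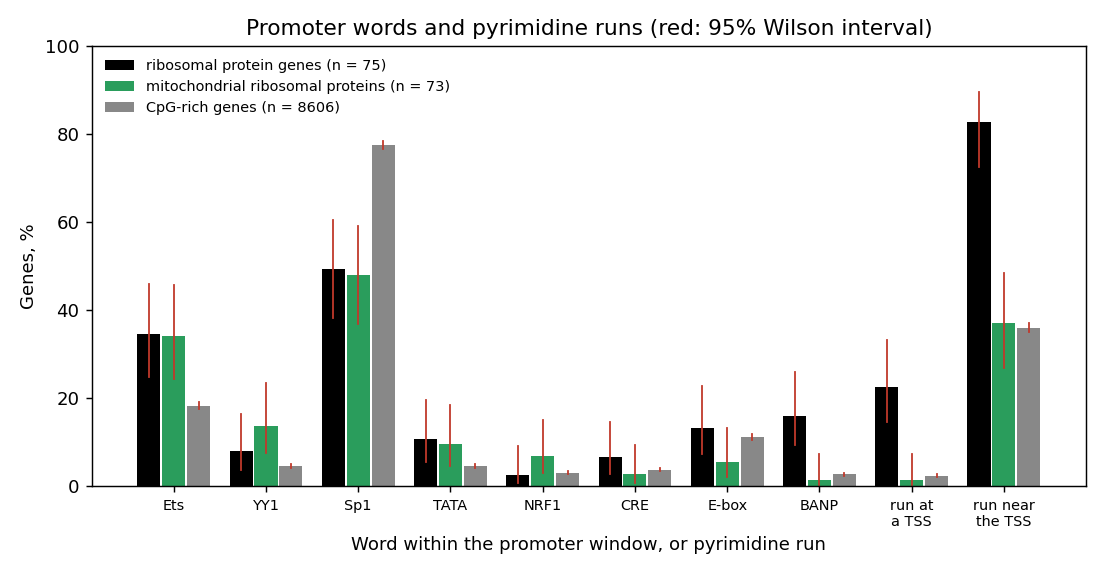
Share of genes (vertical axis, %) with each of 8 words near the reference TSS, and with a run of at least 8 pyrimidines beginning with C at any annotated TSS or from 50 bases before to 100 bases after the reference TSS, for ribosomal protein genes, mitochondrial ribosomal genes and CpG-rich genes (red lines, 95% Wilson intervals). The ribosomal protein genes are at 16% for the BANP word and at 22.7% and 82.7% for the runs, with intervals above those of both other groups.

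Pyrimidine runs depended on which start was read. At the reference TSS itself a run of at least 5 pyrimidines beginning with C was found at 6 of 75 genes (8%, 3.72 to 16.4), against 2.02% of CpG-rich genes. Within 10 bases of it the share was 45.3% (34.6 to 56.6), against 29.3% of CpG-rich genes, and mitochondrial ribosomal genes (39.7%, 29.3 to 51.2) and proteasome genes (37.5%) lay within the interval of the ribosomal protein genes. A run of at least 8 within 50 bases before to 100 bases after the reference TSS was found at 62 genes (82.7%, 72.6 to 89.6), against 36.0% of CpG-rich genes, 37.0% of mitochondrial ribosomal genes and 37.5% of proteasome genes, while the 14 other TOP genes had 78.6% (52.4 to 92.4). The mean number of annotated starts was 4.25 for a ribosomal protein gene and 4.0 for a CpG-rich one. The peaks are many times wider than such a run, so they do not tell which annotated start was in use.

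Pseudogenes of the family had peaks about as often as annotated pseudogenes in general. Of 79 annotated pseudogenes named after a ribosomal protein gene with the ending ps, 4 had a peak within 1 kb of the 5′ end (5.06%, 1.99 to 12.3), against 5.03% of all 4055 pseudogenes. Away from protein-coding starts by over 2 kb the shares were 4 of 75 (5.33%, 2.09 to 12.9) and 3.02%. With only peaks at or above the median score they were 2 of 79 (2.53%, 0.697 to 8.77) and 3.55%. A peak over the pseudogene itself was found at 2 of 79 (2.53%) and 3.23%. Recurrent sequence was not counted at the pseudogenes, and whether it bears on these shares was not tested. The scores were 23.78 at Rpl10-ps2, 18.35 at Rpl18-ps1, 41.85 at Rps19-ps10 and 40.64 at Rps19-ps11, each below the scores of all 72 ribosomal protein genes with a peak.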

How the data were processed

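The authors deposited 1 peak list of the DNaseI library, made with the MACS caller by its peak names; column 5 is the authors' score per peak, of unstated scale. The submitters' processing notes name BWA 0.6.2, SAMtools and the build mm9; the study's methods give read filters and alignment and caller settings for ChIP-seq, and for the DNaseI library these and the depth are not given in the sources used here. Per the study's methods, apoptotic cells were removed on a gradient before digestion of the nuclei.

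Peaks were intersected with windows of 1 kb on each side of every annotated TSS (GENCODE M1, on mm9). Repeats were counted as exact 31-base words over both strands of the genome. Python 3.11.15, numpy 2.4.6, scipy 1.17.1, pysam 0.24.0 and matplotlib 3.10.9 were used, and overlap, word and interval code was tested on simulated data. No significance test was possible with 1 library. Members, lists and words were chosen with earlier results of these data known. Genes named were those without a peak, the 6 highest and 6 lowest scores, the 3 widest and narrowest peaks, fixed exemplars by role, and genes named as examples after their values were seen. Alternatives were another window, start, peak threshold, merging of peaks closer than 500 bp, membership, and motif window. Sequences are from mm9; none is printed from chromosome 18. Some genes named by these rules are not reported here.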

Additional observations from a re-analysis of the deposited data

How the results depend on the processing

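The share of genes with a peak, the median score and its ratios to other genes held under the alternatives tried for them (a wider window, peak centres, the reference TSS only, only peaks at or above the median score, merged peaks, leaving out the 4 paralogs, or adding 8 listed genes of the ribosome, 7 of them autosomal and annotated). Leaving out the 4 paralogs raised the share with a peak to 100%. Merging peaks closer than 500 bp raised the median width to 1674 bp, beside 1731 bp at CpG-rich genes, which turned the order of the widths round, and the share with a peak over the reference TSS to 94.7%. The pyrimidine start was found at 8% at the reference TSS, 45.3% within 10 bases of it and 32% at any annotated TSS; chosen after seeing the data were the run of at least 8 at any TSS (22.7%) and in the window of 50 bases before to 100 after (82.7%). In the whole highest peak, which is far longer than the promoter window, the Ets word was found at 51.4% (CpG-rich genes 34.7%), the YY1 word at 18.1% (12.2%), GGGCGG at 87.5% (88.5%) and TATAAA at 38.9% (32.6%). No paired analysis was possible because there is 1 library with a peak list. The unknown depth limits what an absent peak means.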

Other observations

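Ribosomal protein genes outside the name or the autosomes had peaks too, at 11 of 11 annotated ones. Rpsa, which codes for a small subunit protein also known as a laminin receptor, had a score of 217.87, Gnb2l1 (the scaffold protein Rack1) 146.66, Rpl22l1 164.95, Rpl7l1 265.67 and Rpl36al 103.33. Fau, which codes for a ubiquitin-like protein fused to a small subunit protein, had 85.19. The X-linked genes scored lower than most of the autosomal ones: 122.68 at Rps4x, 113.68 at Rpl10, 85.06 at Rpl36a and 50.99 at Rpl39. All 4 lay below the median of the autosomal genes, and Rpl39 lay below the lowest of them.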
